A study of Mus musculus with 6 samples.

Results

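Genes of sugar breakdown and of the response to low oxygen were described in 6 lung metastases of MMTV-Myc tumours, 32 genes in all, named in a list of glycolytic enzymes, glucose and lactate carriers and targets of hypoxia-inducible factor (HIF). The list was drawn up from function, with earlier results of these data known. Of the 32 genes, 28 had an ordinary probe set on the array annotated with that symbol alone, of 12393 genes on the array with such a probe set. The probe set with the highest mean signal over the 6 arrays stood for each gene. The probe sets with the symbol Gapdh alone were control probe sets, which stayed outside the tests; its ordinary probe sets, like those of Bnip3l, also carry symbols of other genes. Expression of Eno1 and Gpi1 was not analysed here.

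The MMTV promoter drives the Myc oncogene in mammary epithelium. Per the labels, 3 metastases came from Myc mice with an E2F2 knockout, labelled Myc E2F2 KO (KO below), and 3 from Myc mice heterozygous for E2F3, labelled Myc E2F3 Het (Het below), all of strain FVB. Tissue was flash frozen at endpoint, and the labels state neither mouse ages nor how the E2F alleles were made. Myc metastases without an E2F mutation were not used here. The titles of the 3 KO arrays carry 3 different numbers, whereas all 3 Het titles carry 1 and the same number, so the Het metastases may come from 1 mouse. Het replicates 1, 2 and 3 are those titled LM2, LM1 and LM3. Array values are given below in replicate order.

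Glycolysis splits glucose into pyruvate. When oxygen is short, or in many tumours even when it is not, pyruvate is turned into lactate and exported. HIF is a transcription factor whose alpha subunit is marked for destruction by prolyl hydroxylases while oxygen is present. Without oxygen it accumulates, binds DNA at a short core sequence and raises glucose carriers, glycolytic enzymes and genes of survival, pH control and vessel growth. Myc binds many of the same enzyme genes.

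Of the 30 member genes with an entry in the RefSeq promoter table (GRCm38.p6), 25 held the HIF core, ACGTG or GCGTG on either strand, in the 250 bases before the gene's first listed start. This was 83.3%, against 51.4% of the 9887 genes measured on this array with an entry. The median GC content of these windows was 62.8% in members and 58.4% in all. The E-box bound by Myc, CACGTG, which contains the HIF core, was present in 5 member windows, or 16.7%, against 7.74% of all. Any of the E2F strings TTTCCCGC or TTTGGCGC or TTTCGCGC or TTTGCCGC was present in 0 of 30 member windows and in 2.97% of all. A match is a string of letters, not a shown binding site. The windows below are of the 6 members with the widest spread over the 6 arrays among those with an entry, with the HIF core in capitals, each read 5′ to 3′ along its gene. They lie at chr7:110627407-110627656 (plus strand) for Adm, chr7:138909507-138909756 (minus strand) for Bnip3, chr12:54203875-54204124 (minus strand) for Egln3, chr4:43506776-43507025 (plus strand) for Car9, chr14:45318573-45318822 (minus strand) for Ero1a and chrX:93832151-93832400 (minus strand) for Pdk3.
Adm: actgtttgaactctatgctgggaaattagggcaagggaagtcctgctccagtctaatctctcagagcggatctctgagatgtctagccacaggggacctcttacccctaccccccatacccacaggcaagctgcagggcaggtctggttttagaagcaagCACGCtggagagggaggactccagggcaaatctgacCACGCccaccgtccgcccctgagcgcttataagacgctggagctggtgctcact
Bnip3: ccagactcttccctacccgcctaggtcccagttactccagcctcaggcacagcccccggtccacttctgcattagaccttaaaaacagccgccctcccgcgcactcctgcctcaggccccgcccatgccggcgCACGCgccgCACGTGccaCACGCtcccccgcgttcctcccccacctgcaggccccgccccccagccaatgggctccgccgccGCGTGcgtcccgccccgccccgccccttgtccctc
Egln3: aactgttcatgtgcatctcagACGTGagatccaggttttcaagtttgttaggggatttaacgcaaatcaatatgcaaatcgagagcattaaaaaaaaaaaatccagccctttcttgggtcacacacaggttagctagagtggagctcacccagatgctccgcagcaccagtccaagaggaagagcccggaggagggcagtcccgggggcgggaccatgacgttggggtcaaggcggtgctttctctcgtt
Car9: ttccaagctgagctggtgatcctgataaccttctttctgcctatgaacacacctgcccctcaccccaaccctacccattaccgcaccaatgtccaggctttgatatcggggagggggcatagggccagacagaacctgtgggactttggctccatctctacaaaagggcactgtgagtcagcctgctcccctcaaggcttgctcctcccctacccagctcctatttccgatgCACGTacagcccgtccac
Ero1a: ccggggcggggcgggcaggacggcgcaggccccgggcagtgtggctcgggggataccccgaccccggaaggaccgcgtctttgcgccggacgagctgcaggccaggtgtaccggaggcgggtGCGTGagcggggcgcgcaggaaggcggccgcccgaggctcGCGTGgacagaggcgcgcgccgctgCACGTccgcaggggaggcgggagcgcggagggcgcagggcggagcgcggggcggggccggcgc
Pdk3: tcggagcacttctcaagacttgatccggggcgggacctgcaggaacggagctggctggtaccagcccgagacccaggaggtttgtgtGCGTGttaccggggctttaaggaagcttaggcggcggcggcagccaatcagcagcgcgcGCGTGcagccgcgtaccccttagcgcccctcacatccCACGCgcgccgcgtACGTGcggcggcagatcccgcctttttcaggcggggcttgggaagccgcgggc

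In the Car9 window the single match begins 18 bases before the start. The Bnip3 window holds 5 matches, of which a pair forms its E-box, the Pdk3 window 4, Ero1a 3 and Adm 2. The single match of Egln3 begins 229 bases before the start.

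All arrays had been scaled by the authors to a trimmed mean signal of 500.2. Het replicate 1 stood apart in the 3′ to 5′ signal ratio of its control probe sets, which is raised when RNA is shortened. The actin ratio was 2.38 on this array and 1.48 to 1.73 on the others. The Gapdh ratio ran from 0.752 to 0.932, highest on the same array. The transferrin receptor ratio was 11.8 on Het replicate 1 and 3.25 to 5.15 on the others. The E2f3 probe set read 91.6, 91.4 and 138 in KO and 87.2, 144 and 73.0 in Het, with overlap, and whether it lies in the disrupted part is not known; E2f2 was not analysed here, so the genotype labels were not checked. Markers of the labelled tissues gave signal on every array, though without a detection call. The summed signal of 12 simple epithelial and mammary markers was 85853 to 94681 in KO and 94108 to 102759 in Het. Bright genes weigh most in this sum, and single markers differed in spread. Krt8 read 9660 to 12113 in KO and 10637 to 11285 in Het, whereas Wap read 945 to 9295 in KO and 7217 to 9654 in Het. The summed signal of 9 alveolar markers, which include the surfactant gene Sftpc, was 12312 to 67926 in KO and 20046 to 31364 in Het. In bulk samples, fewer cells of a type and less RNA per cell cannot be told apart.

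Among the members, KO replicate 3 and Het replicate 2 had the highest levels within their groups for all 6 HIF-induced stress, pH and secreted genes measured, namely Bnip3, Adm, Car9, Ndrg1, Ero1a and Ddit4. Both arrays were highest in their groups for 13.1% of the 7971 tested genes, and they were singled out after the data were seen. No member passed the test of KO against Het (0 of 27 tested), and 0% of all probe sets passed it. The arrays of KO and Het were fully separate for Pdk3 and Ndrg1, 2 of 28 members, against 16.4% of the 7971 tested genes. On the probe sets used, Ldha, Pgk1, Aldoa, Pgam1 and Tpi1 were bright and spread over 0.23 to 0.50 log2 from lowest to highest array.

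**Figure D1:**
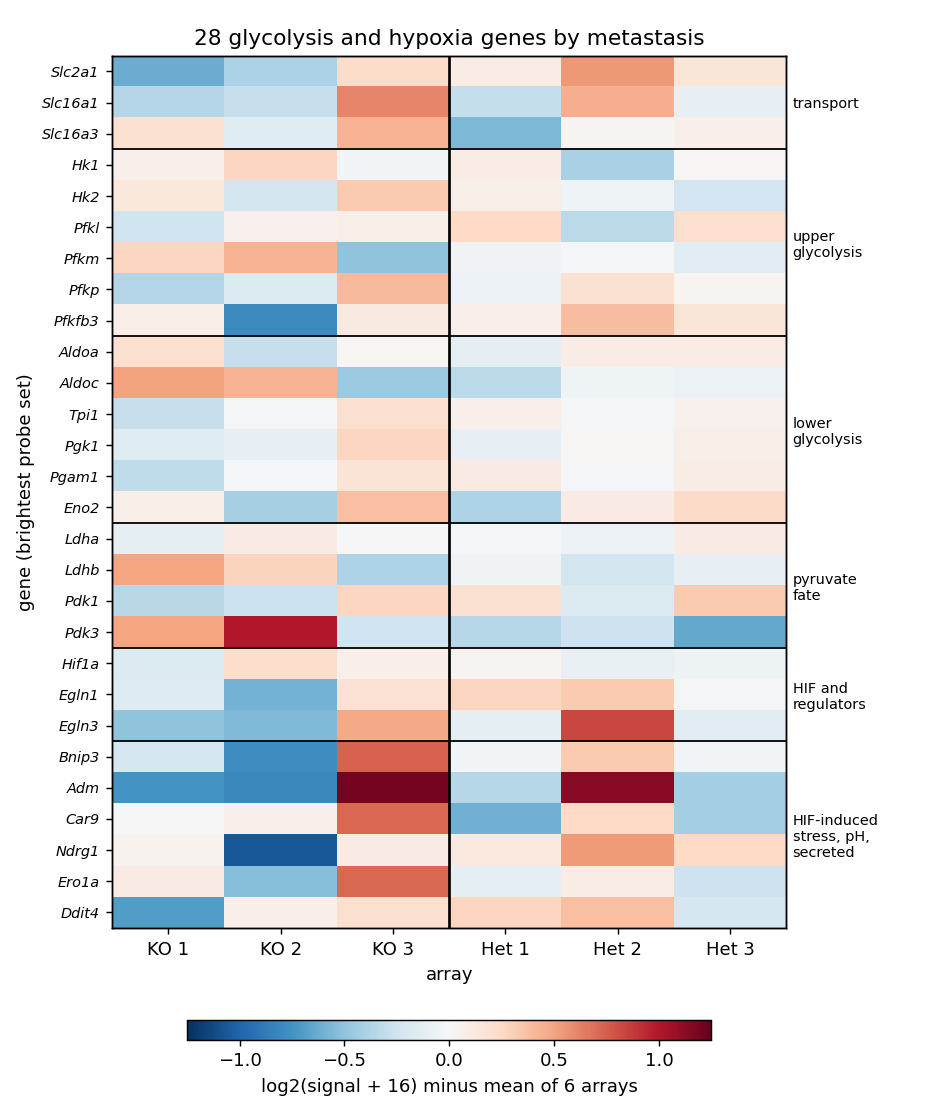
Heat map of log2(signal + 16) minus the gene's mean over the 6 arrays (colour) for 28 genes (rows, grouped by role) on 3 KO and 3 Het arrays (columns). Red cells gather in KO 3 and Het 2 among the HIF-induced genes at the bottom, where Adm reaches signals of 330.4 and 316, while Ldha and Pgk1 stay pale.

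Adm, which encodes the vessel-relaxing peptide adrenomedullin, had the widest spread of the members. Its signals were 73.9, 70.3 and 330.4 in KO replicates 1, 2 and 3 and 102, 316 and 96.4 in Het replicates 1, 2 and 3. The KO replicate 3 and Het replicate 2 values were close to each other, and the other 4 arrays lay far below them, so each group held 1 high array. The highest signal was 4.7 times the lowest, and the KO minus Het difference of -0.24 (SE 0.85) lay within the spread of either group. On the log2 scale, KO replicate 3 exceeded the mean of the other KO arrays by 1.98, and Het replicate 2 exceeded the mean of the other Het arrays by 1.53. Without Het replicate 2 the group difference became 0.27, and without KO replicate 3 it was -0.89. Adm was dim, and the deposited table gives no detection call.

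Bnip3 encodes a mitochondrial protein that promotes removal of mitochondria. Its signals were 1942, 1309.5 and 3765 in KO replicates 1, 2 and 3 and 2199.8, 2832 and 2204 in Het replicates 1, 2 and 3. KO replicate 3 was highest and KO replicate 2 lowest of all arrays, with the Het arrays between them. The difference was -0.17 (SE 0.57), and leaving out KO replicate 2 turned it to 0.17. Leaving out KO replicate 3 gave -0.58.

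Car9, a carbonic anhydrase at the cell surface that acidifies the surroundings of hypoxic cells, had signals of 184, 193 and 313 in KO and 116, 222 and 133 in Het. Each group had its highest value on the same arrays as Adm, and the groups overlapped. The signal of Car9 averaged 229.7 ± 72.0 (SD, n = 3) over the KO arrays and 157 ± 56.7 (SD, n = 3) over the Het arrays, with a log2 difference of 0.52 (SE 0.37). The difference was 0.29 without KO replicate 3.

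Ero1a, an oxidase that forms disulfide bonds in the endoplasmic reticulum, had signals of 2664, 1709 and 4087 in KO and 2287, 2653 and 2071 in Het. KO replicate 3 lay above every other array, KO replicate 1 was level with Het replicate 2, and KO replicate 2 was the lowest array. The difference was 0.19 (SE 0.48), and -0.12 without KO replicate 3. All 3 probe sets of Ero1a were highest in KO replicate 3 within KO and in Het replicate 2 within Het, although their group differences were 0.19, -0.21 and 0.24.

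Ndrg1, a stress gene linked to differentiation, was lower on every KO array than on any Het array. Its signals were 5698, 2634 and 5932 in KO replicates 1, 2 and 3 and 6004, 8002 and 6559 in Het replicates 1, 2 and 3. KO replicate 2 was far below the rest, and the gap between the groups, from KO replicate 3 to Het replicate 1, was narrow. Ndrg1 averaged 4755 ± 1840.5 (SD, n = 3) over the KO arrays and 6855 ± 1031 (SD, n = 3) over the Het arrays, with a log2 difference of -0.61 (SE 0.49) with limma adjusted p = 0.9999. Without KO replicate 2 the difference was -0.23. All 5 probe sets of Ndrg1 lay lower in KO, from -0.61 to -0.14, but the groups overlapped on the other 4. KO replicate 3 was the highest KO array on all 5 and Het replicate 2 the highest Het array on 4 of them.

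Ddit4, an inhibitor of mTOR signalling, had signals of 2191, 3717 and 4093 in KO and 4281, 4639 and 3068 in Het. KO replicate 1 was the low array here, and Het replicate 2 was the highest. The difference was -0.29 (SE 0.38), and -0.013 without KO replicate 1.

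**Figure D2:**
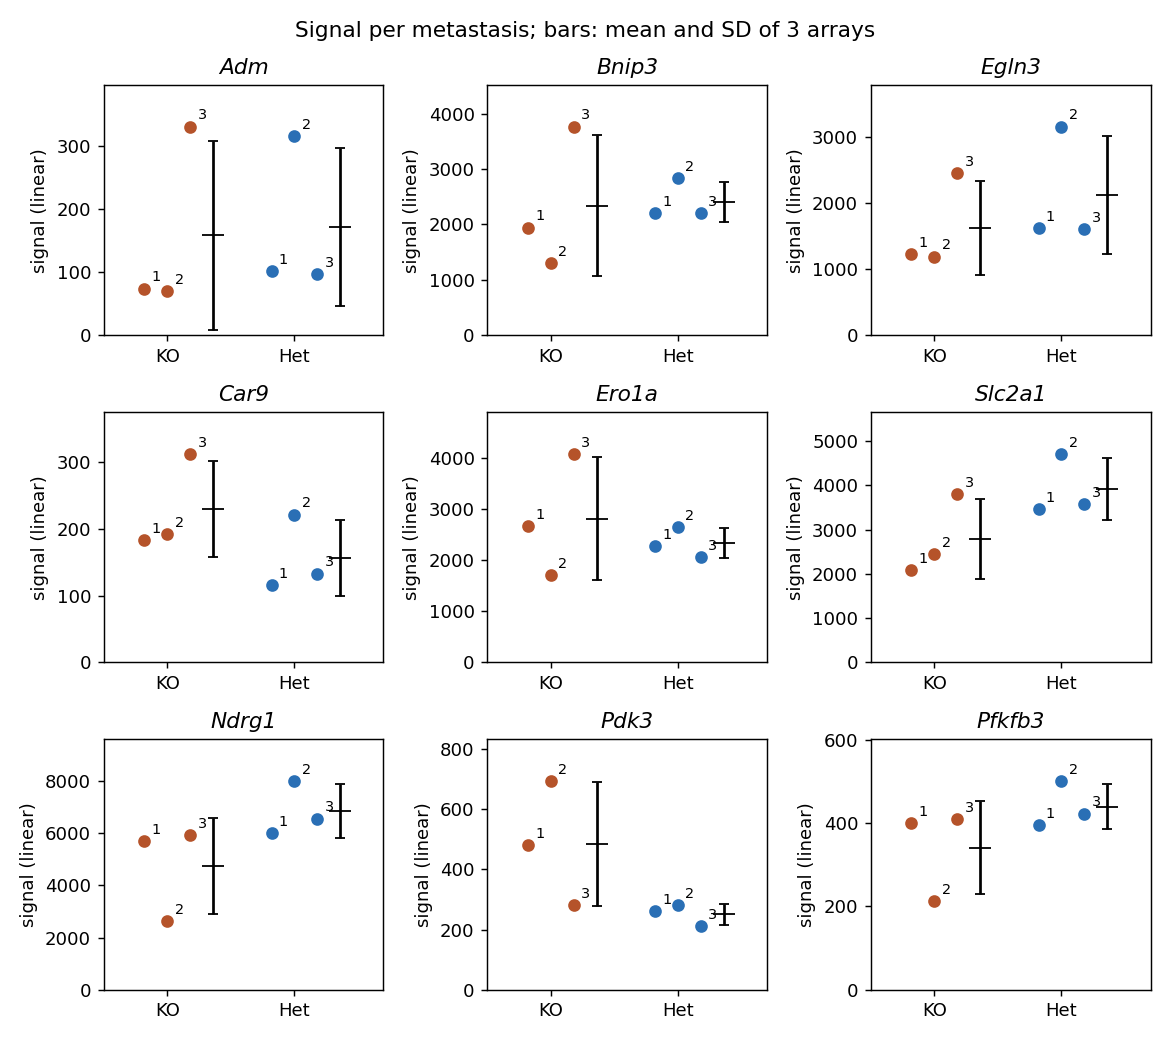
Linear signal (y axis, from 0) of 9 members in KO and Het metastases, 1 point per array labelled with its replicate number, with the mean and SD of 3 arrays as a bar beside the points. In Adm, Bnip3, Egln3, Car9, Ero1a and Slc2a1 point 3 of KO and point 2 of Het are the highest of their groups, whereas in Pdk3 KO replicate 3 is the lowest KO point.

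Among HIF and its regulators, Hif1a, the oxygen-regulated subunit, varied little. Its signals were 1889, 2482 and 2225 in KO and 2179, 1997 and 2032 in Het, with a difference of 0.079 (SE 0.24). Dimmer probe sets of Hif1a were at -0.012, 0.49 and 0.20. HIF is regulated chiefly as a protein, which an array does not measure.

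Egln3, a prolyl hydroxylase that targets HIF and is itself a HIF target, had signals of 1232, 1190.2 and 2447 in KO replicates 1, 2 and 3 and 1613, 3151 and 1600.3 in Het replicates 1, 2 and 3. As for Adm, KO replicate 3 and Het replicate 2 were the 2 highest of the 6 arrays. They exceeded the other arrays of their groups by 1.01 and 0.96 on the log2 scale. The difference between the groups was -0.39 (SE 0.45), and -0.068 without Het replicate 2. The second probe set of Egln3 showed the same order within each group, at a difference of -0.45. Egln1, the main oxygen-sensing hydroxylase, had 879, 649 and 1119 in KO and 1195, 1245 and 967 in Het, with a difference of -0.38 (SE 0.35). KO replicate 2 was lowest, and without it the difference of Egln1 was -0.18.

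The carriers that bring in glucose and export lactate followed the HIF-induced genes in part. Slc2a1, the main glucose carrier GLUT1, had signals of 2094, 2454 and 3806 in KO replicates 1, 2 and 3 and 3456, 4712 and 3584 in Het replicates 1, 2 and 3. KO replicates 1 and 2 were the lowest arrays, KO replicate 3 lay among the Het arrays, and Het replicate 2 was highest. Slc2a1 averaged 2785 ± 903 (SD, n = 3) over the KO arrays and 3917 ± 691 (SD, n = 3) over the Het arrays, with a log2 difference of -0.52 (SE 0.36) that was -0.34 without KO replicate 1. The 3 probe sets of Slc2a1 lay at -0.57, -0.52 and -0.50, each with its highest KO value in replicate 3 and its highest Het value in replicate 2. Slc16a1, which encodes the lactate carrier MCT1, had 2284, 2412 and 4518 in KO and 2406, 4057 and 2755 in Het. KO replicate 3 and Het replicate 2 were again the 2 highest arrays, and the group difference was -0.037 (SE 0.42). It was 0.18 without Het replicate 2 and 0.14 without KO replicate 1. Slc16a3, which encodes the lactate exporter MCT4, was dim, with 137, 105 and 166 in KO and 75.2, 122 and 124 in Het, and a difference of 0.31 (SE 0.36). Het replicate 1 was its lowest array, and without it the difference was 0.11.

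In upper glycolysis, no member separated the groups. Hk1 and Hk2 are hexokinases, which trap glucose as its phosphate. Hk1 had 1289, 1492 and 1210.0 in KO and 1316, 930.1 and 1249 in Het, with a difference of 0.20 (SE 0.23), and Hk2 had 1386, 1075 and 1595 in KO and 1334, 1217 and 1068 in Het, with a difference of 0.15 (SE 0.29). The arrays overlapped for both. The Hk1 difference fell to 0.047 without Het replicate 2, and leaving out KO replicate 3 or 2 gave 0.023 or 0.30 for Hk2. A dimmer probe set of Hk1 did not overlap between the groups, at 683 ± 119 (SD, n = 3) over the KO arrays and 425 ± 58.1 (SD, n = 3) over the Het arrays, a difference of 0.66. The phosphofructokinase genes Pfkl, Pfkm and Pfkp encode the committed step of the pathway. Pfkl had 2122, 2618 and 2654 in KO and 2994, 1999 and 2913 in Het, with a difference of -0.08 (SE 0.22). Pfkm, the muscle form, had 440.4, 496 and 251 in KO and 351, 357 and 330.5 in Het, with a difference of 0.13 (SE 0.42), and it was lowest in KO replicate 3. Pfkp, the platelet form, had 1112, 1266 and 1904 in KO and 1363, 1644 and 1468 in Het, with a difference of -0.10 (SE 0.35), and it was highest in that array. KO replicate 3 was thus at opposite ends of the KO arrays for Pfkm and Pfkp. The dimmer probe set of Pfkp was at 0.49, and that of Pfkl at 0.038.

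Pfkfb3 makes the sugar phosphate that switches phosphofructokinase on. Its signals were 401, 212 and 409.7 in KO replicates 1, 2 and 3 and 395, 501 and 423 in Het replicates 1, 2 and 3. KO replicate 2 lay well below the other 5 arrays, which were close together. The difference was -0.40 (SE 0.42), and -0.11 without KO replicate 2. The dimmer probe set of Pfkfb3 went the other way, at 0.48, without overlap between the groups, so the 2 probe sets differ in sign. This second set was below the filter on dim values.

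Among the enzymes of lower glycolysis and lactate formation, Ldha had the narrowest spread. Ldha, which turns pyruvate into lactate, had 12268, 14377 and 13309 in KO and 13232, 12722 and 14315 in Het, a spread of 0.23 log2 from lowest to highest array and a difference of -0.013 (SE 0.14). Pgk1, which makes ATP from a 3-carbon phosphate, had 9419.9, 9798 and 12615 in KO and 9736, 10630.1 and 11055 in Het, with a spread of 0.42 and a difference of 0.0084 (SE 0.20). Its other probe sets were at -0.041 and -0.23, the latter with a spread of 1.32. Aldoa, the aldolase of most tissues, had 11871, 8482 and 10531 in KO and 9533, 11024 and 11049.8 in Het, with a difference of -0.044 (SE 0.21) and a spread of 0.48. The other 3 probe sets of Aldoa were less even, with spreads of 0.74, 0.75 and 1.18 and differences of -0.031, -0.12 and -0.37. The isomerase Tpi1 ran from 6113 to 8629.9 over the 6 arrays with a difference of -0.073 (SE 0.22), and the mutase Pgam1 from 4382 to 6165 with a difference of -0.12 (SE 0.23). Both were highest in KO replicate 3 and lowest in KO replicate 1. On the brightest control probe set of Gapdh, the 5′ one, the signals were 14481, 17075 and 16225 in KO and 12267, 14442 and 15607 in Het, a difference of 0.18 with no test. The middle and 3′ sets of Gapdh were at 0.074 and 0.059. Its ordinary probe sets shared with other symbols were at 0.078 and -0.24, with mean signals of 13132 and 366. Only the dimmer shared set, which carries 2 symbols, had a negative difference.

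Aldoc, an aldolase best known from brain, had 3492, 3325 and 1781 in KO replicates 1, 2 and 3 and 1944, 2366 and 2333 in Het replicates 1, 2 and 3. KO replicates 1 and 2 were highest and KO replicate 3 lowest of all arrays, so KO replicate 3 was at the opposite end from its place in the HIF-induced genes. The difference was 0.31 (SE 0.42), and it ran from 0.14 without KO replicate 1 to 0.62 without KO replicate 3. Ldhb, the lactate dehydrogenase subunit favoured in tissues that burn lactate, had 1951, 1685 and 1057 in KO and 1340.2, 1178 and 1285 in Het. The KO arrays followed the same order as for Aldoc, with a difference of 0.26 (SE 0.38) that was 0.076 without KO replicate 1. The other 3 probe sets of Ldhb were at 0.19, -0.078 and -0.12. Eno2, the neuronal enolase, was the 1 member with a probe set below the filter on dim values, with 42.7, 25.8 and 56.2 in KO and 26.6, 43.9 and 49.7 in Het, and was not tested.

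Pdk1 and Pdk3 encode kinases that shut off pyruvate dehydrogenase and so keep pyruvate out of mitochondria. Pdk3 had the largest difference of all members and, with Ndrg1, had arrays that did not overlap. Its signals were 480.4, 694 and 282 in KO replicates 1, 2 and 3 and 261, 280.2 and 211 in Het replicates 1, 2 and 3. KO replicates 1 and 2 were well above the rest, while KO replicate 3 was almost equal to Het replicate 2. Pdk3 averaged 485 ± 206 (SD, n = 3) over the KO arrays and 251 ± 35.5 (SD, n = 3) over the Het arrays, with a log2 difference of 0.83 (SE 0.50), a limma adjusted p = 0.9999 and an unadjusted p of 0.15. With each array as a sample, the SE was 0.30, the unadjusted p 0.0267 and the limma adjusted p = 0.426. The difference was 0.54 without KO replicate 2. Of the 9 alveolar markers, 8 were highest in KO replicate 1, and for 5 of the 9 Het replicate 1 lay above KO replicate 2. The mean log2 value of 7 fibroblast markers, relative to the 6 arrays, was 0.59, 0.29 and -0.15 in KO. In Het replicates 1, 2 and 3 it was -0.27, -0.23 and -0.23. Of these 7, 1 lay lower and 6 higher in KO, 5 of the higher ones without overlap, against 16.4% of all tested genes. The part of either marker list in the Pdk3 values was not tested. Pdk1, a HIF target, had 594, 627 and 916 in KO and 863, 666 and 955 in Het, with a difference of -0.22 (SE 0.32). It was the highest KO value in replicate 3 but the lowest Het value in replicate 2. The Pdk1 difference was -0.11 without KO replicate 1, -0.12 without Het replicate 3 and -0.42 without KO replicate 3.

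**Figure D3:**
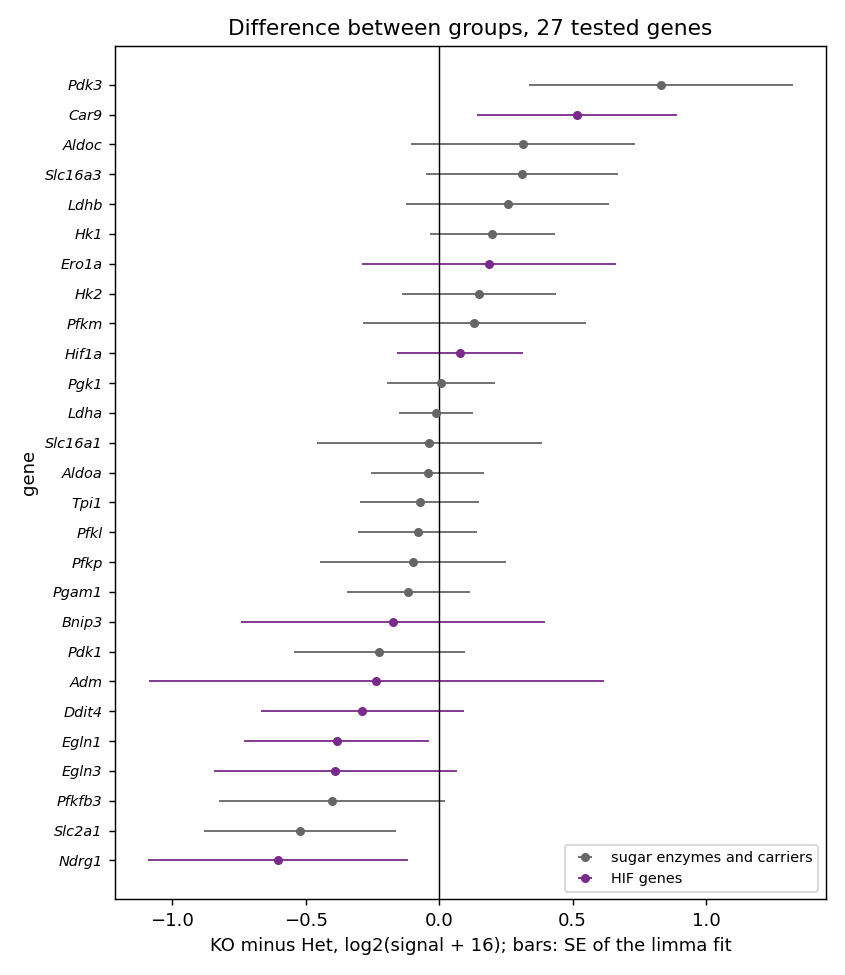
KO minus Het difference of log2(signal + 16) (x axis) for the 27 tested members (y axis, sorted), with the SE of the limma fit of 3 KO samples against the averaged Het sample (purple, HIF genes; grey, sugar enzymes and carriers). The points run from -0.61 for Ndrg1 to 0.83 for Pdk3, and HIF genes lie on both sides of 0.

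Over the 28 members, 12 lay higher and 16 lower in KO by their mean, with a median log2 difference of -0.04. The median over the 7971 tested genes was also -0.04. The 9 HIF genes had a median of -0.24, with 6 lower, and the 19 sugar enzymes and carriers -0.013, with 10 lower. The limma test of 3 KO samples against the averaged Het sample called 0 of 13576 probe sets, or 0%, at an adjusted p under 0.05, and 0 of the 27 members tested. At an unadjusted p under 0.05 it counted 305 probe sets, of which 0 were those used for members. With each array as a sample, limma again called 0, with 1395 at an unadjusted p under 0.05. Of these, 1 was a probe set used for a member, that of Pdk3. The other probe sets of members were not looked up in these counts. Besides Pdk3 and Ndrg1, groups were free of overlap for 3 of the 29 other probe sets of members, again beside 16.4% of all tested genes. These belong to Hk1, Pfkfb3 and Hif1a. Those of Pfkfb3 and Hif1a were below the filter on dim values, with mean signals of 64.1 and 15.9. The 16.4% covers only tested genes by their brightest probe set, so the sets are not alike. For 27 of the 27 tested members, leaving out at least 1 of the arrays moved the difference by over 1.5 times. The groups overlapped for Pdk3 after quantile normalization and for Ndrg1 with the mean of its probe sets. With 3 arrays in each group, the smallest p an exact two-sided permutation test can give is 0.1. Beside these differences, 8 of 9 alveolar, 8 of 9 endothelial and 6 of 7 fibroblast markers lay higher in KO, and their part was not tested. If the Het arrays share a mouse, genotype and mouse of origin cannot be told apart. Without Het replicate 1, 3 members did not overlap, Pfkfb3 being added, against 26.7% of all tested genes.

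Within the groups, KO replicate 3 was the highest KO array for 20 of 28 members, against 35.8% of the 7971 tested genes. Het replicate 2 was the highest Het array for 15 of 28 members, against 31.8% of tested genes. Both held for 12 of 28 members, against 13.1%. Without Het replicate 1, whose control ratios stood apart, Het replicate 2 exceeded Het replicate 3 for 16 of 28 members, against 46.5% of tested genes. A range of at least 1 log2 over the 6 arrays was seen for 10 of 28 members, against 21.6% of tested genes. These shares are descriptions and cannot serve as a test, because KO replicate 3 and Het replicate 2 were singled out after the data were seen. Members share arrays and regulators, so they are not independent.

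The mean of the 9 HIF genes, relative to the 6 arrays, was -0.26, -0.44 and 0.49 in KO replicates 1, 2 and 3 and -0.06, 0.42 and -0.15 in Het replicates 1, 2 and 3. The mean of the 19 sugar enzymes and carriers stayed between -0.075 and 0.10, but its subgroups differed. The 3 carriers alone were at -0.27, -0.28 and 0.43 in KO and -0.25, 0.34 and 0.036 in Het. The 4 genes of lactate and pyruvate fate were at 0.13, 0.28 and -0.092 in KO and -0.057, -0.18 and -0.078 in Het. Upper and lower glycolysis lay between -0.13 and 0.096. Alveolar markers lay at 1.53, 0.40 and -1.14 in KO and 0.24, -0.60 and -0.43 in Het, in the same array order, and 8 of the 9 were highest in KO replicate 1. Endothelial markers lay at 0.66, 0.31 and -0.56 in KO and 0.24, -0.35 and -0.30 in Het. KO replicate 3 and Het replicate 2 thus had the highest HIF means and the lowest alveolar and endothelial means of their groups. Het replicate 3 was nearly as low as Het replicate 2 in both marker lists, but its HIF mean was -0.15. The epithelial and mammary markers ran from -0.41 in KO replicate 1 to 0.17 in Het replicate 3. The summed signal of 9 endothelial markers was 1612 to 3876 in KO and 1849.9 to 3155 in Het. The dimmest of the alveolar and endothelial markers, Tie1, averaged 94.4 over the 6 arrays, and the deposited table gives no detection call. The part of these markers in the HIF values was not tested.

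**Figure D4:**
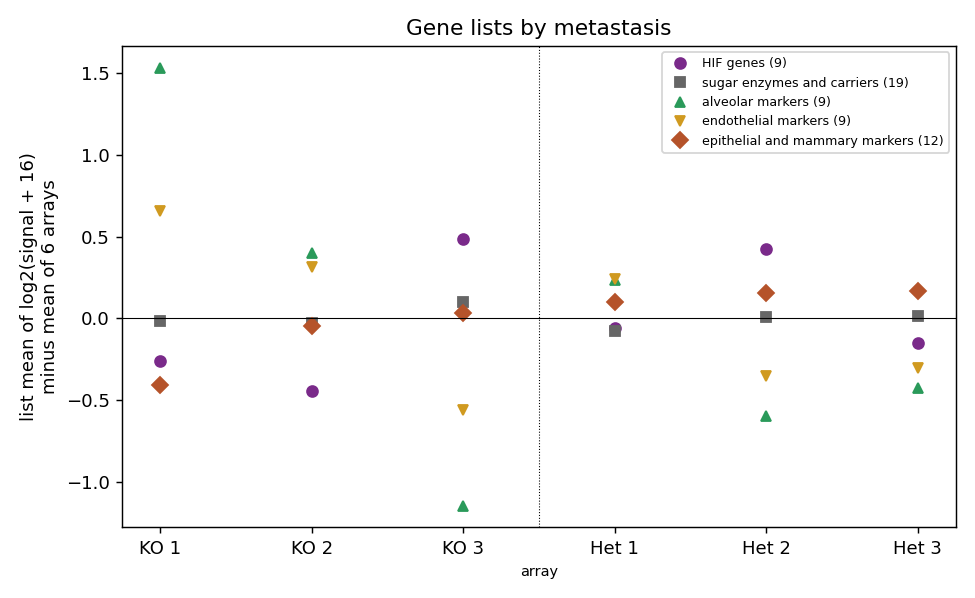
Mean of each gene list on each array (x axis) as log2(signal + 16) minus the mean of the 6 arrays (y axis); the number of genes is in the legend. The HIF genes peak in KO 3 at 0.49 and Het 2 at 0.42, where alveolar markers are at -1.14 and -0.60. The sugar enzymes and carriers stay near 0 as a list mean, in which the carriers and the enzymes are pooled.

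Other cell types were measured in the same way, as list means on this scale. Neutrophil markers (5 measured) were highest in KO replicate 2, at 1.10, and lowest in Het replicate 2, at -0.70. Macrophage markers (8) ran from -0.23 to 0.27, fibroblast markers (7) from -0.27 to 0.59, airway markers (4) from -1.01 to 0.62 and red cell and platelet markers (5) from -0.71 to 0.39. Striated muscle markers (10) were highest in KO replicates 1 and 2, at 0.46 and 0.53, the arrays where the muscle enzyme gene Pfkm was highest. Of these 10, 5 were below the filter on dim values, and their part in the Pfkm values was not tested.

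Other genes of the pathways went both ways, and none passed the test. Of 18 further genes of glycolysis and pyruvate use measured, 9 lay higher and 9 lower in KO, and 0 had a limma adjusted p under 0.05. The second glucose carrier Slc2a3 had 290.0, 76.6 and 105 in KO and 50.5, 42.6 and 54.9 in Het, a difference of 1.21 (SE 0.71). Its groups did not overlap, the 1 such case among the 18, against 16.4% of all tested genes. KO replicate 1 was by far the highest for Slc2a3. Bpgm, which makes the phosphate that lowers the oxygen affinity of haemoglobin, was at 0.94 (SE 0.56), and Pkm, the last enzyme of glycolysis, at -0.21 (SE 0.19). Pdk4, a kinase like Pdk3, had 964, 146 and 303 in KO and 759, 1319 and 805 in Het, a difference of -1.36 (SE 0.95), opposite in sign to Pdk3. KO replicate 1 lay among the Het arrays for Pdk4.

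Of 9 further regulators of HIF, 5 lay higher and 4 lower. Groups were free of overlap for 2 of the 9, against 16.4% of all tested genes. Cited2, which competes with HIF for its co-activator, had 1946, 3012 and 2448 in KO and 3584, 4076 and 4014 in Het, without overlap, a difference of -0.67 (SE 0.29). Cul2, a scaffold of the ligase that marks HIF for destruction, was at -0.27 (SE 0.26), also without overlap, the ligase Siah2 at 0.26 (SE 0.41) and the hydroxylase Egln2 at -0.15 (SE 0.27).

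Of 35 further HIF targets, 15 lay higher and 20 lower, with a median of -0.046, and the groups did not overlap for 1 higher and 2 lower genes, against 16.4% of all tested genes. Angptl4, a secreted inhibitor of lipoprotein lipase, had 570.3, 345 and 297 in KO replicates 1, 2 and 3 and 698, 1004 and 729 in Het replicates 1, 2 and 3. All KO arrays lay below all Het arrays, with a difference of -1.01 (SE 0.40). The collagen-modifying enzyme gene Plod1 was at 0.55 (SE 0.26), the vessel-constricting peptide gene Edn1 at 0.52 (SE 0.30) and Ankzf1 at -0.41 (SE 0.26). KO replicate 3 was the highest KO array for 17 of the 35 and Het replicate 2 the highest Het array for 21, against the 35.8% and 31.8% of tested genes given above. The list means were 0.040, -0.18 and 0.056 in KO replicates 1, 2 and 3 and 0.028, 0.11 and -0.054 in Het replicates 1, 2 and 3. KO replicate 3 thus lay little above KO replicate 1. The means of KO replicate 3 and Het replicate 2 were closer to 0 than those of the 9 HIF members.

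The pentose phosphate pathway, which branches from glycolysis to make NADPH and ribose, had 4 genes higher and 4 lower of 8. Overlap was absent for 1 of the 8, against 16.4% of all tested genes. Pgd, which makes NADPH, had 3545, 4953 and 6266 in KO and 6728, 6524 and 7142 in Het, without overlap, a difference of -0.50 (SE 0.33). Taldo1 was at -0.22 (SE 0.24), Pgls at -0.25 (SE 0.31) and Tkt at 0.10 (SE 0.15). Of 12 genes of gluconeogenesis and glycogen, 6 lay higher and 6 lower. Pygl, the liver form of the enzyme that breaks glycogen down, had 987, 847 and 279 in KO replicates 1, 2 and 3 and 242, 195 and 184 in Het replicates 1, 2 and 3. KO replicates 1 and 2 were far above the other arrays, as for Pdk3, the groups did not overlap, and the difference was 1.52 (SE 0.71). The means of the alveolar and of the fibroblast markers were also highest in those arrays. For 5 of the 9 alveolar markers, Het replicate 1 lay above KO replicate 2. The part of either list in the Pygl, Bpgm and Slc2a3 values was not tested. Pck2, the mitochondrial enzyme of gluconeogenesis, was at 0.52 (SE 0.24) and the bisphosphatase gene Fbp1 at 0.71 (SE 0.42), both without overlap, and Fbp2 at -0.83 (SE 0.43).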

How the data were processed

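RNA of 6 lung metastases was measured on Affymetrix mouse arrays. The authors deposited linear signal intensities. MAS5 and Affymetrix Expression Console are named in the submitters' processing notes. Arrays give no read depth, and their number limits the precision.

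Of 22690 probe sets, 64 were controls, 20380 had 1 symbol in the platform annotation, 691 several and 1555 none. Values were taken as log2(signal + 16), so a difference understates the change of dim genes. The dimmest 40% by mean signal were dropped, leaving 13576 for limma 3.58.1 under R 4.3.3 (lmFit, eBayes with a trend, Benjamini-Hochberg adjustment), checked on simulated data. The 3 KO samples were set against the mean of the 3 Het arrays, counted as 1 sample that is assumed to vary as the KO samples do. The labels do not say that samples are separate animals, so the p-values rest on the spread among these samples, which may be technical.

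The members and lists were chosen with earlier results of these data known. All members are named. Values on every array are given for members without overlap, for the 8 with the widest range or largest absolute moderated t, and for related enzyme pairs. Other probe sets are given where they differ in sign or by over 0.5, and from each further list up to 4 genes with the largest moderated t. Values of other probe sets of Hk1, Slc2a1, Egln3, Ero1a, Ndrg1, Hif1a, Aldoa and Gapdh, and the arrays of Ddit4 and Hif1a, were added after they were seen. Promoters are RefSeq windows. Alternatives changed the unit of replication, pseudocount, normalization, filter, probe set and the arrays kept.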

Additional observations from a re-analysis of the deposited data

How the results depend on the processing

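The number of probe sets with a limma adjusted p under 0.05 was 0 under each of the 13 alternatives run, with 157 to 1395 at an unadjusted p under 0.05. The median difference of the members was between -0.15 and 0.05 with 1 array left out, and between -0.067 and -0.017 under the other alternatives. The count of members without overlap was 1 with quantile normalization (Ndrg1), 1 among the 20 members with a probe set that has no shared-sequence suffix (Pdk3) and 2 with the mean of all probe sets (Hk1 and Pdk3). The counts of members highest in KO replicate 3 and in Het replicate 2 were chosen after seeing the data. Under alternatives with all arrays kept, the KO replicate 3 count was 16 of 20, otherwise 18 and 19 of 28. The Het replicate 2 count was 14 of 20, otherwise 16 and 18 of 28. With an array left out, the highest is picked from fewer arrays, so the share of tested genes rises too. Without KO replicate 1 or 2, KO replicate 3 led for 21 or 22 members, against 47.3% or 48.5% of tested genes. Without Het replicate 1 or 3, Het replicate 2 led for 16 or 19 members, against 46.5% or 43.1%. Of the 395 alternative values of single members, 369 kept their sign and 26, of 14 members, did not. With 1 array left out, the differences were -0.89 to 0.27 for Adm, -0.15 to 0.089 for Aldoa, -0.58 to 0.17 for Bnip3, -0.12 to 0.50 for Ero1a, -0.012 to 0.18 for Hif1a, -0.069 to 0.045 for Ldha, -0.27 to 0.023 for Pfkl, -0.052 to 0.42 for Pfkm, -0.32 to 0.062 for Pfkp, -0.23 to 0.015 for Pgam1, -0.12 to 0.088 for Pgk1, -0.35 to 0.18 for Slc16a1 and -0.19 to 0.055 for Tpi1, the cause not tested. For the other tested members they were -0.77 to -0.34 for Slc2a1, 0.11 to 0.47 for Slc16a3, 0.047 to 0.29 for Hk1, 0.023 to 0.30 for Hk2, -0.56 to -0.11 for Pfkfb3, 0.14 to 0.62 for Aldoc, 0.076 to 0.51 for Ldhb, -0.42 to -0.11 for Pdk1, 0.54 to 1.16 for Pdk3, -0.57 to -0.18 for Egln1, -0.72 to -0.068 for Egln3, 0.29 to 0.77 for Car9, -0.81 to -0.23 for Ndrg1 and -0.47 to -0.013 for Ddit4. With the mean of all probe sets, Pfkfb3 was at 0.039, Pfkp at 0.20 and Pgk1 at -0.087. With quantile normalization Pgk1 was at -0.012, and with probe sets without such a suffix Hif1a was at -0.012. No paired analysis was possible because the KO titles carry no replicate number shared with the Het titles. Dim members such as Adm, Car9 and Slc16a3 are limited by signal over background, which was not known here.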
